A study of Homo sapiens with 4 samples.

Results

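The aldehyde dehydrogenases are enzymes that oxidise aldehydes to carboxylic acids with NAD or NADP as cofactor. The 10 genes of the family described here were ALDH1A1, ALDH1A3, ALDH1B1, ALDH2, ALDH3A1, ALDH3A2, ALDH3B1, ALDH7A1, ALDH9A1 and ALDH18A1. They were found by gene symbol in the platform annotation, which gave 19 probe sets of the 54613 on the array and 10 genes of 19775. Another 9 genes of the family were on the array and are described as a separate list.

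Family members differ in their substrates and in where they sit in the cell. ALDH1A1 and ALDH1A3 turn retinaldehyde into retinoic acid, the ligand of the retinoic acid receptors, and both are known to contribute to the ALDEFLUOR reaction, a flow cytometry stain that is used to sort cells as ALDH high or ALDH low. Other members clear acetaldehyde and lipid aldehydes, or make carnitine and proline precursors and break down lysine.

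Total RNA of 2 human neuroendocrine tumour cell lines was measured on 4 one-colour Affymetrix arrays. Per the sample titles they were DAXX-KD NCI-H727, control NCI-H727, DAXX-KD QGP1 and control QGP1 cells, with 1 array each. Per the design text NCI-H727 is a bronchial and QGP1 a pancreatic neuroendocrine tumour line. DAXX-KD cells received siRNA against DAXX, a chaperone of histone variant H3.3, and control cells a negative control siRNA, in both cases at 50 nM by electroporation. Of the 2 DAXX siRNAs in the labels it is not given whether each was used alone or both together. Every sample is described as ALDH high and as QGP1, and the source given for the NCI-H727 samples is also QGP1. Line names used here are those of the titles. No array of ALDH low or unsorted cells was analysed here, so a high ALDH level could not be checked against one.

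Values were the deposited log2 signals, made with RMA, which corrects for background, equalises the distributions of the arrays and summarises the probes of a probe set. Array medians lay between 5.31 and 5.36. The brightest probe set of a gene, by its average over the arrays, stood for the gene, and 14648 genes with a mean at or above 4.85, the 40th percentile of all probe sets, were kept. DAXX signal was 6.14 in DAXX-KD NCI-H727 against 7.35 in its control, and 6.56 in DAXX-KD QGP1 against 8.52 in its control. Markers of the titled organs were mixed. Of 7 lung and bronchial genes past the filter, 0 were higher and 3 lower in NCI-H727 in the limma fit described below. Of 5 islet genes 1 was higher and 3 were lower. The background was 23.2% of all genes higher and 25.1% lower. The lung transcription factor NKX2-1 read 3.23 and 3.35 on the NCI-H727 arrays and 8.38 and 8.77 on the QGP1 arrays at its representative probe set. Its other probe set read 5.59 to 5.95 on all 4 arrays. The bronchial peptide GRP read 4.12 and 5.37 on the NCI-H727 arrays against 11.8 and 12.8 on the QGP1 arrays. NKX2-1 and GRP had NCI-H727 means under the filter level and passed it through the QGP1 arrays, so their calls are no support for a difference. The remaining lung gene called lower, FOXA1, lay above the filter level on all 4 arrays at its representative probe set. It read 7.11 and 7.18 on the NCI-H727 arrays against 8.34 and 8.54 on the QGP1 arrays (limma adjusted p = 0.00112), the direction opposite to the titles. Of the islet genes, NKX2-2 read 9.25 and 9.17 on the NCI-H727 arrays and 5.93 and 4.799 on the QGP1 arrays, whereas SST, somatostatin, was lower on the NCI-H727 arrays (11.80 and 11.87) than on the QGP1 arrays (13.1 and 13.8). ISL1 (8.94 and 8.82 against 9.46 and 9.61) and PAX6 (5.67 and 5.12 against 6.77 and 6.64) were also lower on the NCI-H727 arrays, the direction of the titles. PDX1 passed the filter but was not called between the lines (limma adjusted p = 0.213). The direction of each difference between lines below therefore rests on the titles alone. Both lines had high chromogranin signal, with CHGA between 11.1 and 12.3 on the 4 arrays. Of the markers of other cell types, 5 of 8 fibroblast and endothelial genes and 3 of 6 leukocyte genes passed the filter, and PTPRC, COL3A1, LUM and CDH5 lay below it. Among the markers, GRP was past 2-fold after knockdown, lower in DAXX-KD NCI-H727 (-1.24) and in DAXX-KD QGP1 (-1.04). NKX2-2 (1.13) and the endothelial gene PECAM1 (1.06) were past 2-fold and higher in DAXX-KD QGP1. These values are from representative probe sets. A PAX6 probe set with a mean below the filter read 7.29 in DAXX-KD QGP1 against 5.63 in control, 3.15-fold higher. A FOXA1 probe set, also with a mean below the filter, read 4.69 in DAXX-KD QGP1 against 5.74 in control, 2.07-fold lower. The DAXX-KD NCI-H727 value of GRP and the control QGP1 value of NKX2-2 lie under the filter level. The part of these markers in the results was not tested.

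Of the 10 members ALDH1A3 was the 1 member past 2-fold, lower in DAXX-KD NCI-H727, and 0 members passed 2-fold in QGP1. Over all 14648 genes, 1.32% were lower by 2-fold or more in DAXX-KD NCI-H727 and 0.177% were higher, and in DAXX-KD QGP1 0.232% were lower and 0.259% higher. At 1.5-fold, 3 members were lower in DAXX-KD NCI-H727 (background 4.96%) and 0 higher (background 1.60%), and in QGP1 0 were lower (background 1.32%) or higher (background 1.74%). With 1 array per condition in each line these differences carry no replicate check and no p-value, and in bulk RNA fewer cells with a transcript and less of it per cell cannot be told apart. As a yardstick from the same arrays, the SD between probe sets that share a gene was 0.275 in NCI-H727 and 0.202 in QGP1.

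ALDH1A3 read 6.59 in DAXX-KD NCI-H727 against 8.37 in control NCI-H727, and 5.45 in DAXX-KD QGP1 against 5.51 in control QGP1. The control NCI-H727 array stood above the other 3, and the DAXX-KD array of that line lay between it and both QGP1 arrays. The log2 difference was -1.77 in NCI-H727, a 3.42-fold lower signal that left 29.2% of control, and -0.064 in QGP1. A second ALDH1A3 probe set read 4.49 in DAXX-KD NCI-H727 against 4.15 in control, and 3.82 in DAXX-KD QGP1 against 3.89 in control. All 4 of these values lie under the filter level, where RMA compresses differences, and the difference of 0.34 in NCI-H727 has the other sign.

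The other retinaldehyde dehydrogenase, ALDH1A1, read 10.4 in DAXX-KD NCI-H727 against 11.1 in its control, and 10.7 in DAXX-KD QGP1 against 10.9 in its control. DAXX-KD NCI-H727 was the lowest of the 4 arrays and its control the highest. ALDH1A1 was thus 1.61-fold lower in NCI-H727 (-0.69) and 1.11-fold lower in QGP1 (-0.15), and it has 1 probe set, so no second measurement was available.

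ALDH9A1, which oxidises trimethylaminobutyraldehyde on the way to carnitine, read 10.3 in DAXX-KD NCI-H727 against 11.0 in control, and 11.4 in DAXX-KD QGP1 against 11.7 in control. It was 1.63-fold lower in NCI-H727 (-0.70) and 1.24-fold lower in QGP1 (-0.31), the 1 member lower than control by more than the probe set SD in both lines. It also has a single probe set.

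The sequence upstream of these 3 genes is shown because they were the members at least 1.5-fold lower in DAXX-KD NCI-H727. Each is the 250 bases before the RefSeq start in GRCh38.p14, 5′ to 3′ on the gene's strand; capitals mark the CCAAT box, the GC box with the letters GGGCGG and the TATA box with the letters TATAAA, each on either strand and with overlapping matches counted.
ALDH1A1, minus strand, chr9:72953054-72953303: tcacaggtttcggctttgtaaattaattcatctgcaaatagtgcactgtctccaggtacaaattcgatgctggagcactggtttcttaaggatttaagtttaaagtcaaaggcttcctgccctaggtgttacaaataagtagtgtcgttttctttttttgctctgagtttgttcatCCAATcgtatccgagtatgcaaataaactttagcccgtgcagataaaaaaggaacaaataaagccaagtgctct
ALDH1A3, plus strand, chr15:100879581-100879830: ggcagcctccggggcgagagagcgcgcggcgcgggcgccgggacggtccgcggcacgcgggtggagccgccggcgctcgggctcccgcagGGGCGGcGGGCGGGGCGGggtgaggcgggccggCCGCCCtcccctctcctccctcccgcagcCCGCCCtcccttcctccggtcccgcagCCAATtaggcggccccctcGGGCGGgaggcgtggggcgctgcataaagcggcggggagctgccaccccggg
ALDH9A1, minus strand, chr1:165698563-165698812: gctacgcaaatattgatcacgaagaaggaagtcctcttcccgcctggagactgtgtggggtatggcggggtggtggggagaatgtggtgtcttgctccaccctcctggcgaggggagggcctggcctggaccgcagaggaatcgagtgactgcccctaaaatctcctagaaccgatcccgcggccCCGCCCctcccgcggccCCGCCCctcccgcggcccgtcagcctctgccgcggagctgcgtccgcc

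The 3 windows differ in base content. That of ALDH1A3 holds 38 CG dinucleotides, more than 96.7% of the 34943 windows of the table, that of ALDH9A1 21 and that of ALDH1A1 6, against a median of 11. ALDH1A3 has 6 matches to the GC box, some overlapping, ALDH9A1 has 2 and ALDH1A1 has 0, and 42.5% of all windows hold at least 1. The CCAAT box occurs 1 time each in ALDH1A1 and ALDH1A3 and 0 times in ALDH9A1, against 32.0% of windows. The TATA box, found in 10.8% of windows, had 0 matches in the 3 windows. Windows were matched for 8 of the 10 members; these letters are a description and not shown to be bound sites.

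ALDH3A2, the fatty aldehyde dehydrogenase of the endoplasmic reticulum that is mutated in Sjögren-Larsson syndrome, gave different readings at its 3 probe sets in NCI-H727. The brightest read 9.74 in DAXX-KD NCI-H727 against 10.2 in control, lower by a log2 difference of -0.49. The next read 10.13 in DAXX-KD against 10.14 in control (-0.0059). The dimmest read 6.81 in DAXX-KD against 7.89 in control, which is 2.12-fold lower (-1.08). In QGP1 the same probe sets differed by -0.063, 0.0007 and 0.019. Counting each probe set past the filter on its own, 2 of 18 member probe sets were at least 2-fold lower in DAXX-KD NCI-H727, those of ALDH1A3 and ALDH3A2, against a background of 1.68% of 27215 probe sets. All 3 ALDH3A2 probe sets carry the s_at suffix, which marks probes shared by several transcripts.

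**Figure D1:**
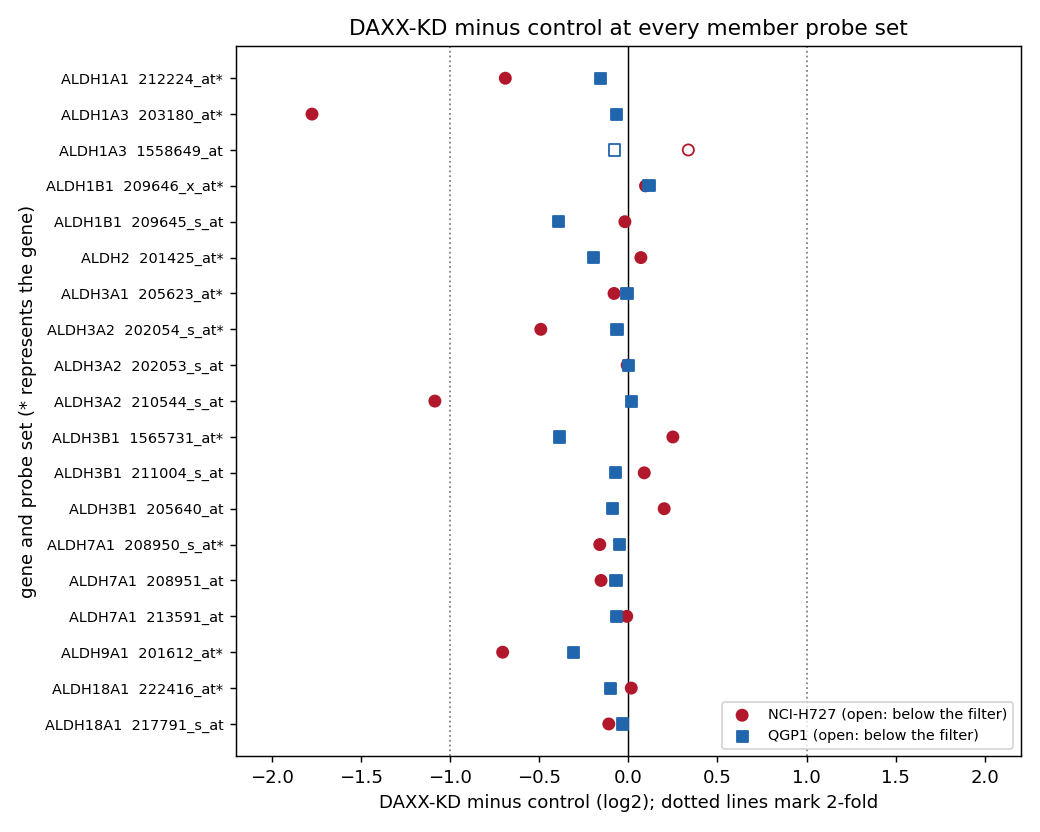
Log2 difference of DAXX-KD from control (x axis) at each of the 19 member probe sets (y axis), with circles for NCI-H727 and squares for QGP1, 1 array per condition; open symbols mark a probe set below the filter and asterisks the probe set that represents its gene. In NCI-H727 the ALDH1A3 probe set at -1.77 and 1 ALDH3A2 probe set at -1.08 lie past the 2-fold line, and the QGP1 squares stay between -0.39 and 0.12.

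ALDH2, the main acetaldehyde enzyme of mitochondria, read 9.71 in DAXX-KD NCI-H727 against 9.64 in control (0.071), and 6.36 in DAXX-KD QGP1 against 6.55 in control (-0.20). ALDH1B1, its mitochondrial relative, differed by 0.097 in NCI-H727 and 0.12 in QGP1. The second ALDH1B1 probe set differed by -0.019 and -0.39, so its sign in both lines depends on the probe set.

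ALDH3A1, known as a crystallin of the cornea and a target of the aryl hydrocarbon receptor, was dim on every array. It read 4.94 in DAXX-KD NCI-H727 against 5.02 in control, and 5.19 in DAXX-KD QGP1 against 5.20 in control, all near the filter level. ALDH3B1, which acts on lipid aldehydes at membranes, differed by 0.25 in NCI-H727 and -0.39 in QGP1. Its other 2 probe sets had the same signs, at 0.090 and 0.20 in NCI-H727 and -0.072 and -0.091 in QGP1.

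ALDH7A1, the lysine degradation enzyme antiquitin, differed by -0.16 in NCI-H727 and -0.051 in QGP1, and its other 2 probe sets by -0.15 and -0.0083 in NCI-H727, against -0.069 and -0.065 for QGP1. ALDH18A1, which makes the proline precursor pyrroline-5-carboxylate, differed by 0.017 and -0.10, and its second probe set by -0.11 and -0.033. In all, 6 of 10 members in NCI-H727 and 8 of 10 in QGP1 differed from control by less than the probe set SD of the line, as did 70.0% and 68.1% of all genes.

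By sign alone, 6 of 10 members were lower in DAXX-KD NCI-H727 and 9 of 10 in DAXX-KD QGP1, against 47.3% and 46.2% of all genes. The QGP1 differences ran from -0.39 to 0.12, and 8 of 10 were smaller than the probe set SD of 0.202. The member medians were -0.12 in NCI-H727 and -0.083 in QGP1, and the medians over all genes were 0.015 and 0.018.

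The lines are the only repeats of the knockdown. A limma fit with terms for knockdown and for line, over all 4 arrays and 14648 genes, had 1 residual degree of freedom and a prior of 4.18. It called 0 of 10 members and 0 of 14648 genes (0%) at an adjusted p of 0.05, and at an unadjusted p under 0.05 it held 1 member and 6.92% of genes. That member was ALDH9A1 (-0.51, SE 0.15, lower in 2 of 2 lines, unadjusted p = 0.0204, limma adjusted p = 0.624). ALDH1A3 averaged -0.92 with an SE of 0.40 (limma adjusted p = 0.766), and ALDH1A1 -0.42 with an SE of 0.17 (limma adjusted p = 0.738). How the knockdown difference of NCI-H727 departs from that of QGP1 could be given only as a value, with no test: -1.71 for ALDH1A3, -0.54 for ALDH1A1, -0.43 for ALDH3A2 and -0.40 for ALDH9A1, and 0.64 for ALDH3B1.

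**Figure D2:**
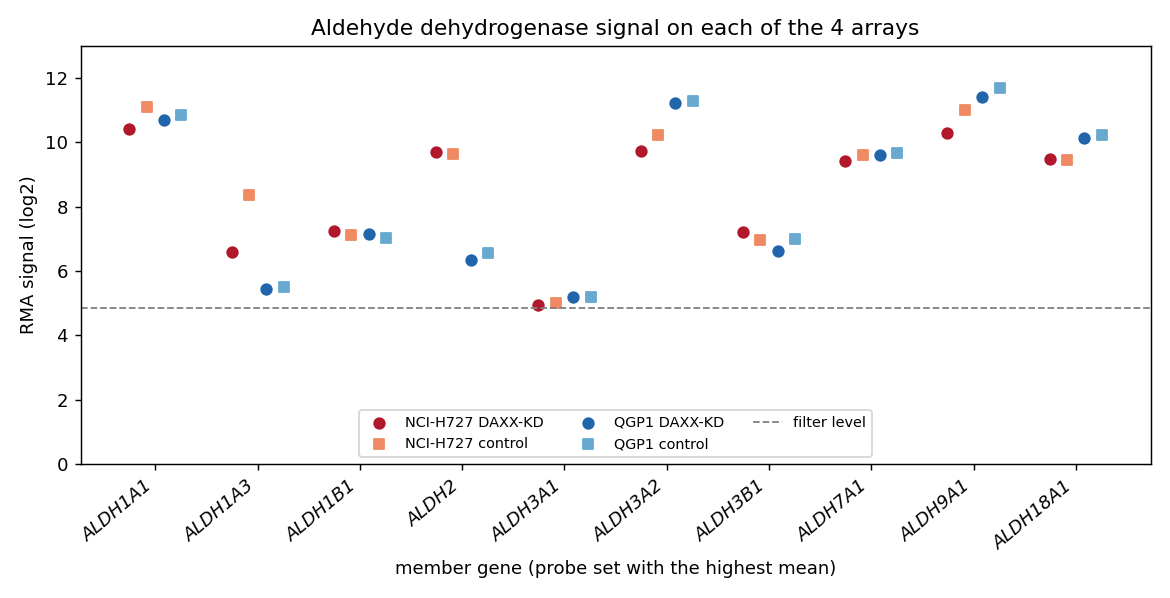
RMA signal on the log2 scale (y axis) of each member's representative probe set (x axis) on the 4 arrays; circles are DAXX-KD and squares control arrays, 1 array each, and the dashed line is the filter level of 4.85. ALDH2 separates the lines and ALDH1A3 is highest in control NCI-H727. Heights of different genes come from different probes and are not comparable.

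The line coefficient of the same limma fit compared the 2 NCI-H727 arrays with the 2 QGP1 arrays, which differ in treatment and are not repeats of 1 culture. It called 5 of 10 members, with 2 higher and 3 lower in NCI-H727, against a background of 23.2% of genes higher and 25.1% lower, or 48.3% in all. The share of members called is near that of all genes. For 7 of 10 members the arrays of the lines did not overlap, as for 77.2% of genes. The SD between probe sets that share a gene was 0.665 here.

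ALDH2 had the largest line difference of the 10 members. It read 9.71 and 9.64 on the NCI-H727 arrays against 6.36 and 6.55 on the QGP1 arrays, with no overlap. The difference was 3.22 (SE 0.14, limma adjusted p = 7.1e-05), or 9.34-fold, and it was 3.36 between the DAXX-KD arrays and 3.09 between the controls. ALDH1A3 was higher in NCI-H727 by 2.00 (SE 0.40, limma adjusted p = 0.0109), with values of 6.59 and 8.37 against 5.45 and 5.51. That gap was 1.15 between the DAXX-KD arrays and 2.86 between the controls. Its call was lost when the QGP1 DAXX-KD array (1.97) or the QGP1 control (2.03) was left out. Those fits also had no knockdown term. The spread they measured was the knockdown difference within NCI-H727, so they do not show that the call rests on the QGP1 arrays.

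The members lower in NCI-H727 were ALDH3A2, ALDH9A1 and ALDH18A1. ALDH3A2 read 9.74 and 10.2 in NCI-H727 against 11.2 and 11.3 in QGP1 (-1.27, SE 0.16, 2.41-fold, limma adjusted p = 0.00228), and its other probe sets were lower in NCI-H727 as well, 1.35-fold and 2.63-fold. ALDH18A1 read 9.48 and 9.46 against 10.1 and 10.2 (-0.71, SE 0.13, 1.64-fold, limma adjusted p = 0.0082), with -0.46 at its second probe set. ALDH9A1 read 10.3 and 11.0 against 11.4 and 11.7 (-0.90, SE 0.15, 1.87-fold, limma adjusted p = 0.00656). The arrays of the lines did not overlap in any of the 3. ALDH9A1 lost its call when DAXX-KD NCI-H727 (-0.55), DAXX-KD QGP1 (-1.06) or control QGP1 (-0.75) was left out, in fits that also had no knockdown term.

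The other 5 members did not pass. ALDH1A1 read 10.4 and 11.1 in NCI-H727 against 10.7 and 10.9 in QGP1, so the lines overlapped, with a difference of -0.020 (95% interval -0.46 to 0.42). ALDH1B1 differed by 0.084 (-0.24 to 0.41), ALDH3B1 by 0.26 (-0.22 to 0.74) and ALDH3A1 by -0.21 (-0.53 to 0.12). ALDH7A1 differed by -0.12 (-0.44 to 0.21) at its representative probe set and by -0.063 at its second. The dimmest of its 3 probe sets read 5.66 and 5.66 in NCI-H727 against 7.18 and 7.25 in QGP1, a difference of -1.56 (2.94-fold, limma adjusted p = 0.000691 over 27215 probe sets). A fit of every probe set called 9 of 18 member probe sets, 2 higher and 7 lower in NCI-H727, against 21.4% and 24.6% of all probe sets.

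**Figure D3:**
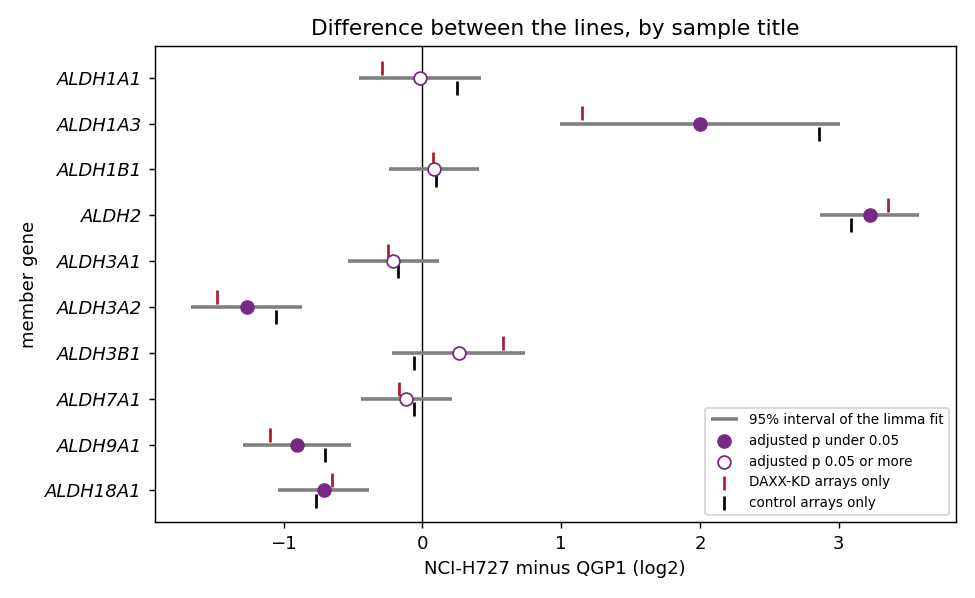
NCI-H727 minus QGP1 on the log2 scale (x axis) for the 10 members (y axis); points are the limma estimate over 2 arrays per line, bars its 95% interval, and ticks the difference within the DAXX-KD arrays (above each point) or the control arrays (below). Filled points passed an adjusted p of 0.05: ALDH2 and ALDH1A3 were higher and ALDH3A2, ALDH9A1 and ALDH18A1 lower in the arrays titled NCI-H727, and the DAXX-KD and control ticks lie farthest apart for ALDH1A3.

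ALDH2 and ALDH1A3 had the widest ranges over the 4 arrays, 3.36 and 2.92. The genes with the most similar pattern were found by root mean square distance over the 4 arrays after centring each gene. For ALDH2 these were BRINP1 (0.032), TBX15 (0.039) and SLC2A11 (0.042). On the QGP1 arrays BRINP1 (3.88 and 3.99) and TBX15 (4.14 and 4.25) lay under the filter level. Both passed it through the NCI-H727 arrays, so their likeness to ALDH2 is no support for a shared pattern. SLC2A11 read 5.72 and 5.81 on the QGP1 arrays, above that level. For ALDH1A3 the most similar genes were NWD2 (0.14), EPHA7 (0.15) and FAM222A (0.27). NWD2 read 6.90 in DAXX-KD NCI-H727 against 8.66 in control, and 5.82 in DAXX-KD QGP1 against 6.15 in control. EPHA7, an ephrin receptor, read 7.47 against 9.03 in NCI-H727 and 6.36 against 6.59 in QGP1. A likeness over 4 arrays is a description of these arrays.

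Of the other 9 aldehyde dehydrogenases, 7 passed the filter and 0 of these were past 2-fold in either line. ALDH5A1, which breaks down the GABA product succinic semialdehyde, was 1.39-fold lower in DAXX-KD NCI-H727 and differed by 0.050 in QGP1. Its second probe set, also past the filter, differed by -0.12 in NCI-H727 and -0.48 in QGP1. ALDH6A1, of valine and pyrimidine breakdown, differed by -0.47 in NCI-H727 and 0.21 in QGP1. Its 4 brighter probe sets were below control in DAXX-KD NCI-H727 (-0.31 to -0.61), and in QGP1 they ran from -0.20 to 0.51. Among the 7 genes past the filter ALDH3B2 had the highest QGP1 difference, 0.40.

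ALDH1L2, a mitochondrial folate enzyme of this list, had a mean below the filter, with low values in NCI-H727. Its brightest probe set in QGP1 read 2.65 and 2.46 in DAXX-KD and control NCI-H727, and 6.74 in DAXX-KD QGP1 against 5.28 in control QGP1. The QGP1 values both lie above the filter level and differ 2.74-fold (1.45). Its other 2 probe sets were under 4.85 on all arrays and differed by 0.24 and -0.12 in QGP1. ALDH1A2, another retinaldehyde dehydrogenase, was higher in NCI-H727 (5.87 and 5.94 against 4.82 and 4.89, difference 1.05, limma adjusted p = 0.00206), but a QGP1 value lies just under the filter level and its second probe set overlapped between lines, with 5.41 and 5.37 against 5.21 and 5.47.

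Genes around the retinaldehyde step were set beside ALDH1A1 and ALDH1A3. Of 23 genes of retinoid metabolism and the retinoic acid response, 15 passed the filter, 0 were past 2-fold after knockdown in either line, and their medians were 0.030 in NCI-H727 and 0.012 in QGP1. RDH10, which makes retinaldehyde from retinol, read 11.7 in DAXX-KD NCI-H727 against 11.2 in control (0.54), and 7.25 in DAXX-KD QGP1 against 6.95 in control (0.30). At its 2 other probe sets past the filter the difference was 0.28 and -0.021 in NCI-H727, against 0.48 and 0.24 in QGP1. DHRS3, which turns retinaldehyde back to retinol, was 1.47-fold higher in DAXX-KD QGP1. RARB, a retinoic acid receptor and itself induced by retinoic acid, differed by -0.40 in NCI-H727 and 0.63 in QGP1, and its other 4 probe sets lay below the filter.

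Between lines, 7 of 15 genes of this list were higher and 1 was lower in NCI-H727 in the limma fit, beside the background of 23.2% and 25.1%. RDH10 was higher by 4.37 (limma adjusted p = 3.01e-05), with both NCI-H727 arrays above both QGP1 arrays at all 3 probe sets past the filter. DHRS9 was higher by 1.95, RXRA by 1.53, DHRS3 by 1.33, RARB by 1.10, RDH11 by 1.06 and CYP26B1, a retinoic acid hydroxylase, by 0.82. A second CYP26B1 probe set past the filter overlapped between the lines, with 5.98 and 6.53 in NCI-H727 against 6.30 and 6.53 in QGP1. Its relative CYP26A1 was the 1 gene lower in NCI-H727 (-0.64), but its NCI-H727 values of 4.72 and 4.58 lie under the filter level and it passed through the QGP1 arrays (5.50 and 5.08), so its call is no support for a difference.

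Enzymes that feed aldehydes to the family or compete for them were the next lists. Of 18 alcohol dehydrogenases and aldehyde reductases, 11 passed the filter and 0 were past 2-fold. AKR1B10, which reduces retinaldehyde to retinol, read 10.1 in DAXX-KD NCI-H727 against 9.29 in control (0.85), and 3.75 against 4.33, both under the filter level, in QGP1. Of 9 proline and glutamate enzymes, 7 passed and 0 were past 2-fold. PRODH, proline dehydrogenase, was 1.76-fold lower in DAXX-KD NCI-H727 and 1.29-fold lower in QGP1. Of 12 lysine, choline and carnitine enzymes, 9 passed and 0 were past 2-fold. Of the 9, 8 were lower in DAXX-KD NCI-H727 (47.3% of all genes were), a count that takes in AASS and TMLHE. The median was -0.15 there and -0.015 in QGP1, beside 0.015 and 0.018 over all genes. The NCI-H727 median is the value of TMLHE, which lies under the filter level in that line. The count and this median are therefore no support for a difference. AASS, the first enzyme of lysine breakdown, read 4.21 in DAXX-KD NCI-H727 against 4.93 in control, the first of these under the filter level. TMLHE, which starts carnitine synthesis, read 3.07 and 3.22 in NCI-H727 against 7.37 and 7.32 in QGP1. Its NCI-H727 values lie under the filter level, and it passed the filter through the QGP1 arrays, so no test is given for it.

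**Figure D4:**
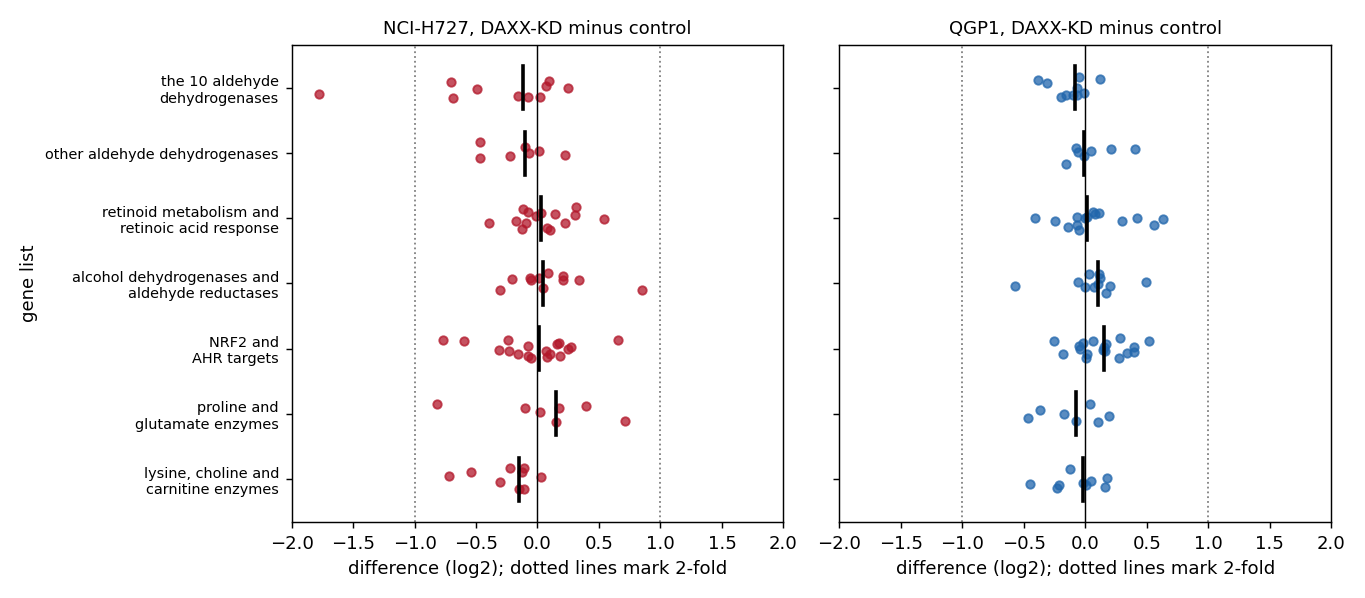
Log2 difference of DAXX-KD from control (x axes) for the 10 aldehyde dehydrogenases and the genes past the filter in 6 related lists (y axis), in NCI-H727 (left) and QGP1 (right); points are genes, black bars list medians and dotted lines 2-fold, with 1 array per condition. ALDH1A3 in NCI-H727 is the 1 point past 2-fold.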

How the data were processed

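The table deposited by the authors held log2 values on 4 Affymetrix arrays, made by RMA; the submitters' processing notes name affy 1.40.0 and R 3.0.3. The method scales arrays to nearly 1 distribution, so a shift of most genes would be removed. Gene names came from the platform annotation; 41091 had 1 gene symbol, 1801 several and 11721 none, and only the first kind was used. Background correction could not be redone from this table. The number of arrays limits the precision.

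Differences within a line were described by size. The fits used limma 3.58.1 in R 4.3.3, two-sided, with Benjamini-Hochberg adjustment over all genes tested and a threshold of 0.05; the script was tested on simulated data. Nothing in the labels gives repeated cultures. In the fit with knockdown and line terms, the residual is how far the knockdown differences of the 2 lines depart from each other. The p-values for knockdown and for line both measure that spread, moderated by the prior. A technical part of it and a difference in response between the lines cannot be told apart. Named genes were all 10 members, DAXX, list genes past 2-fold or 0.05 or at a list's extremes, and the 3 genes most like each of the 2 widest-ranging members; EPHA7 and NWD2 are 2 of these. List genes named beyond this were chosen after their values were seen. Members and lists were chosen with earlier results of these data known. Promoter sequences came from RefSeq, GRCh38.p14. Alternatives were another filter, another gene summary, probe sets without s_at and x_at, a second quantile normalization, loess centring, a trend in the prior, other model terms and leaving out arrays.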

Additional observations from a re-analysis of the deposited data

How the results depend on the processing

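The ALDH1A3 difference past 2-fold in DAXX-KD NCI-H727 (-1.77) depended on the gene summary. With the mean of its probe sets it was -0.72, and the members past 2-fold were 0 against 1. That mean takes in the second ALDH1A3 probe set (0.34), which lies under the filter level on all 4 arrays. With every probe set counted on its own they were 2, and at 1.5-fold 3; in QGP1 they were 0 under each of these. Genes past 2-fold in NCI-H727 were 220, against 119 with the mean of probe sets, 502 probe sets counted singly, and 961 at 1.5-fold. In QGP1 they were 72, against 44, 111 and 449. Averaging probe sets also gave a QGP1 difference of -0.14 for ALDH1B1 and turned its joint limma value to -0.049. The QGP1 difference of ALDH3A1 (-0.0068) was 0.026 after a second quantile normalization and 0.041 after loess centring, so its sign depended on the scaling. With a trend on intensity in limma's prior the joint fit called 5 genes, none of them a member. Without cell line as a block (no replicate block) the joint limma fit called 0 members and 0 genes, with ALDH9A1 at -0.51 (SE 0.53), so the call was unchanged.

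For the lines, leaving out 1 array at a time gave 3 to 5 called members and 4513 to 6658 called genes in limma, against 5 and 7075, with fewer arrays in the fit. The 3 came without either QGP1 array, where ALDH1A3 and ALDH9A1 were lost. ALDH1A1, not called, read 0.32 without DAXX-KD NCI-H727, -0.36 without control NCI-H727 and 0.057 without control QGP1. ALDH7A1 passed with the mean of its probe sets (-0.58, limma adjusted p = 0.00733). Counting every probe set gave 12508 calls.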

Other observations

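Targets of the NRF2 and aryl hydrocarbon receptor factors, which also control some aldehyde dehydrogenases, held 0 genes past 2-fold after DAXX knockdown in either line. Of 19 genes on this list 18 passed the filter, with medians of 0.011 in NCI-H727 and 0.15 in QGP1, beside 0.015 and 0.018 over all genes. CYP1B1, a cytochrome P450 that oxidises hormones and retinol, read 10.3 in DAXX-KD NCI-H727 against 11.0 in control (1.70-fold lower), and 6.19 in DAXX-KD QGP1 against 6.44 in control. Its other probe sets past the filter differed by -0.81 and -0.41 in NCI-H727. GCLM, a subunit of the glutathione-making enzyme, was 1.58-fold higher in DAXX-KD NCI-H727 and differed by -0.18 in QGP1, and its other 2 probe sets were 0.33 and 0.61 higher in NCI-H727. Between lines, CYP1B1 was higher in NCI-H727 by 4.32, and TIPARP, an aryl hydrocarbon receptor target, was lower by 1.43.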
